A study of Fragaria vesca with 24 samples.

Results

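The tissue by cold interaction in the woodland strawberry (Fragaria vesca) genotype ‘Alta’ compared the cold response of crowns with that of leaves, gene by gene. For each gene, the interaction was the log2 response of crowns (42 d against 0 h) minus the log2 response of leaves. A positive value, called higher here, means that transcript accumulation moved upward more, or downward less, in crowns than in leaves, and a negative value, called lower, means the opposite. The contrast was fitted on 11 of the 24 libraries of the series, and 19863 of the 34006 genes in the deposited table passed the filter on low counts and were tested.

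The series covered ‘Alta’, the freezing-tolerant parent of a mapping population, and ‘NCGR1363’, the susceptible parent, with 3 RNASeq libraries in each of 8 groups of genotype, tissue and time. Every ‘Alta’ library came from clonal plants rooted from runners and raised for 5 weeks at 20 °C and an 18 h photoperiod, so that all describe 1 clone. Untreated crowns and untreated leaves were taken at 0 h, with 3 libraries each. Crowns and leaves of the treated groups were taken after 42 d at 2 °C, with 2 crown libraries and 3 leaf libraries in the fit. The study's acclimation used a shorter photoperiod than the growth period, and untreated plants were sampled at 0 h only, so that cold, day length and plant age cannot be told apart in any difference between 42 d and 0 h.

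The strawberry crown is a shortened stem that holds the meristems from which the plant regrows after winter, and its survival decides whether the plant survives a freeze. The leaf is the main photosynthetic organ, and older leaves are often lost in winter. During cold acclimation plants change membrane lipids, soluble sugars, cell walls, water channels and protective proteins such as dehydrins, and a gene can take part in one organ and not in the other. In bulk tissue, fewer cells of a type and less RNA per cell give the same reading and cannot be told apart.

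The library labelled ‘Alta’ crown 42 d replicate 3 was kept out of the fit because its profile was that of an untreated ‘Alta’ leaf. Across 19863 genes, Pearson's r of log2(CPM + 0.1), where CPM is the count relative to the library total scaled with TMM factors, was 0.972 to 0.984 between it and the 3 leaf libraries at 0 h, but 0.668 to 0.688 between it and the other crown libraries at 42 d. These correlations are over genes, which are not independent replicates. Its summed CPM of 6 photosynthetic leaf markers was 2205, inside the 2161 to 2269 of leaves at 0 h and far from the 26.6 to 38.4 of the 2 remaining crown libraries at 42 d. All 6 of these markers had higher means in leaves than in crowns at both times, and 2 of them had no count in either crown library at 42 d. Of 5 vascular and stem markers, 4 had higher means in crowns than in leaves at 0 h and 2 at 42 d, and their summed CPM in crowns was 319.6 to 344 at 0 h and 114 to 153 at 42 d. The total count of the 11 libraries was between 12818719 and 16884412. The sources do not say that a crown and a leaf library of the same number came from the same plant, and p-values measure the spread between these libraries only.

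At an FDR of at most 0.05 in edgeR's quasi-likelihood F-test, the interaction was called for 5745 of 19863 genes (28.9%), of which 2662 were higher (13.4% of genes tested) and 3083 lower (15.5%). Each tissue taken alone also changed widely. Crowns had 10631 genes called between 0 h and 42 d (53.5%), 5062 higher (25.5%) and 5569 lower (28%) at 42 d, and leaves had 11129 (56.0%), 5521 higher (27.8%) and 5608 lower (28.2%). The median absolute interaction of the called genes was 1.42 on the log2 scale, with quartiles of 0.863 and 2.49, and 1944 called genes had an interaction of at least 2 log2 units. With the library labelled crown 42 d replicate 3 included under its label, 2046 of 19892 genes were called (10.3%), and 1973 of these were among the 5745. The split of calls depended on the scaling: with library totals in place of TMM factors, the median interaction over all genes moved from -0.042 to -0.565, and 1115 genes were called higher against 7321 lower.

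The first 3 principal components separated tissue, time and their interaction. The first component, with 59.4% of the variance of log2(CPM + 0.1), separated crowns from leaves. The second, with 25.9%, separated 42 d from 0 h in both tissues. The third, with 7.53%, had scores of 31.1 to 35.1 for crowns at 0 h and -72.1 and -70.1 for crowns at 42 d, whereas leaves went from -40 to -31.8 at 0 h to 42.9 to 55.7 at 42 d. Its sign thus changed with time in opposite directions in the 2 tissues, with no overlap between groups.

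**Figure D1:**
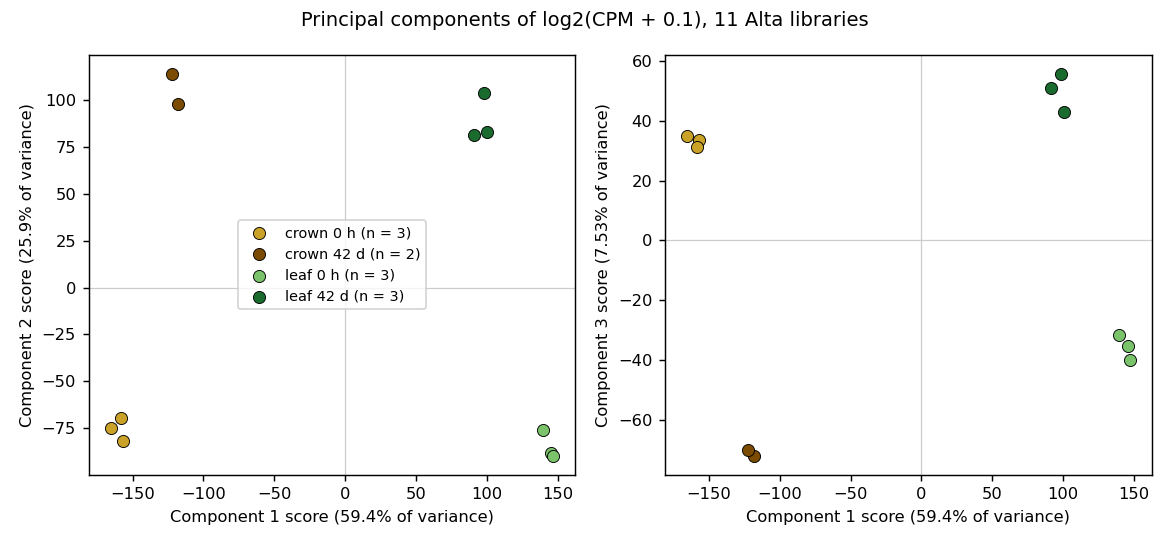
Scores of the 11 ‘Alta’ libraries on principal components 1 and 2 (left) and 1 and 3 (right) of log2(CPM + 0.1); each point is 1 library and the share of variance is on each axis. Component 3 is positive in crowns at 0 h and leaves at 42 d and negative in crowns at 42 d and leaves at 0 h.

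Most genes that responded in both tissues moved the same way. Of 7037 genes with both responses called, 6189 (87.9%) had responses of the same sign, and Pearson's r of the crown and leaf responses over the 19863 genes was 0.463 (Spearman's rho 0.519), a description over genes. The interaction was called with responses of opposite sign for 848 genes, 4.27% of those tested and 14.8% of the called interactions. Among these, 399 rose in crowns and fell in leaves, with median log2 responses of 0.80 and -0.76, and 449 fell in crowns and rose in leaves, with medians of -1.51 and 1.3.

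**Figure D2:**
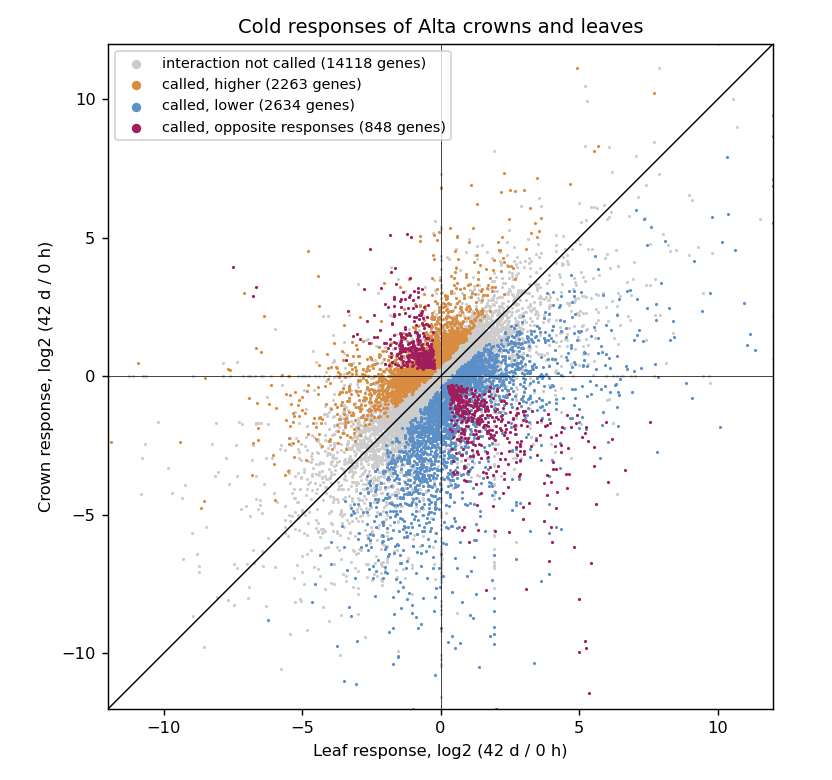
Log2 cold response (42 d against 0 h) of leaves on the x axis and of crowns on the y axis, 1 point per gene, for 19863 genes; the diagonal marks equal responses, and 11 genes beyond 12 log2 units are drawn at the edge. The 848 genes with opposite responses lie at the upper left and lower right.

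The other called interactions were differences of size or responses called in 1 tissue. In 3474 genes a single response was called, 1689 of them the crown response. The largest such class was 1027 genes that fell in crowns and had no called leaf response, with a median crown response of -2.04 against 0.05 in leaves. It was followed by 959 genes that fell in leaves, 826 that rose in leaves and 662 that rose in crowns, each with no called response in the other tissue. In 1353 genes both responses had the same sign, and the crown response was the larger in 794. Of these, 472 fell in both tissues with medians of -2.99 in crowns and -1.14 in leaves, and 322 rose in both with medians of 1.55 and 0.67. A response that was not called is not shown to be 0, and 70 called interactions had neither response called.

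**Figure D3:**
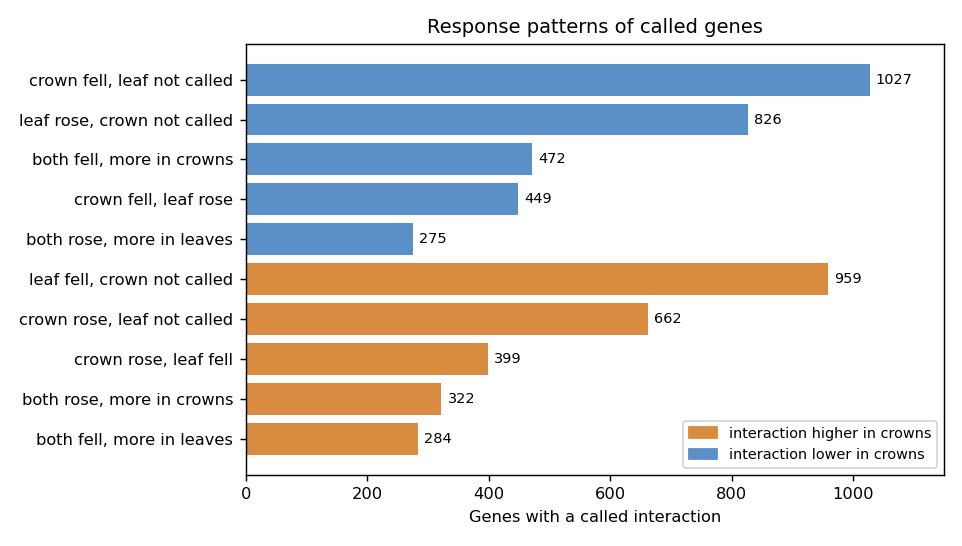
Number of genes with a called interaction in each response pattern; orange bars are interactions that were higher in crowns and blue bars those that were lower. The longest bar is the 1027 genes that fell in crowns with no called response in leaves.

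Seen from the side of the tissues, crowns and leaves resembled each other more at 42 d. The crown to leaf difference was called for 13137 genes at 0 h (66.1%) and for 10896 at 42 d (54.9%). The fit had 3 crown libraries at 0 h and 2 at 42 d, so these counts also differ in power. Without 1 of the crown libraries at 0 h, the counts were 11867 to 12000 at 0 h and 10285 to 10326 at 42 d. Crowns were the higher in 35.7% and the lower in 30.4% of the genes tested at 0 h, and in 27.2% and 27.7% at 42 d. Its median absolute size over all genes was 0.892 log2 units at 0 h and 0.733 at 42 d, and it was smaller at 42 d in 58.4% of the genes. Pearson's r between a crown and a leaf library was 0.677 to 0.699 over the 9 pairs at 0 h and 0.805 to 0.813 over the 6 pairs at 42 d, ranges that do not overlap. The difference was called at both times with the same sign for 8006 genes, at 0 h only for 4495 and at 42 d only for 2254. For 636 genes it was called at both times with the sign reversed, and the interaction was called for all 636. Of these, 431 were higher in crowns at 0 h and higher in leaves at 42 d, and 205 the reverse.

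The study pairs gene IDs with descriptions for the 896 genes of the freezing tolerance interval on chromosome 2 (Fvb2), and genes outside it are given by ID only. Of the interval genes, 511 were tested and 143 had a called interaction (28%, beside 28.9% over all genes), 61 higher and 82 lower, with opposite responses in 17. The lists of interval genes below were put together from those descriptions, apart from FvH4_2g09610, which has no such description. The lists are described by counts and medians, with no test of a list. The median interaction over all genes tested was -0.042.

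Chloroplast proteins were the list with the most interactions called higher. All 26 were tested, 14 were called higher and 2 lower, 61.5% beside 28.9% over all genes, and the median was 0.63. In leaves 12 members fell and 4 rose, and in crowns 12 rose and 5 fell. Over all genes tested, 28.2% fell in leaves and 25.5% rose in crowns. Thioredoxin M-type (FvH4_2g14900), which reduces enzymes of the chloroplast in the light, had 1065, 954 and 1007 CPM in untreated leaves and 441, 322 and 350 at 42 d. Its crown values were 4.48, 3.61 and 3.42 CPM at 0 h and 5.22 and 6.65 at 42 d. The leaf groups did not overlap, nor did the crown groups, and the changes ran in opposite directions. The interaction was 2.07 ± 0.24 (SE, FDR = 0.000154), from a leaf response of -1.44 and a crown response of 0.63.

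A chloroplast alanine-tRNA ligase (FvH4_2g16070), which charges tRNA for protein synthesis in the organelle, changed on the crown side. Its values were 5.90, 6.70 and 6.11 CPM in crowns at 0 h and 17.5 and 28.8 at 42 d. In leaves they were 245, 208 and 188 CPM at 0 h and 213, 226.8 and 186 at 42 d. The crown groups were apart and the leaf groups overlapped, with an interaction of 1.93 ± 0.26 (SE, FDR = 0.000391). The oleoyl-acyl carrier protein thioesterase (FvH4_2g18600), which releases oleate from the plastid, had an interaction of 1.03 (FDR = 0.00335) from a leaf response of -1.36. Its mean in leaves went from 94.2 to 36.8 CPM, and the crown response of -0.33 was not called. The BASS3 cotransporter (FvH4_2g17730) and a rhodanese-like protein (FvH4_2g17470) both had interactions of 1.28 (FDR = 0.000598 and 0.00445), each with a called rise in crowns only.

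The chloroplast list also held exceptions. The signal recognition particle 43 kDa protein (FvH4_2g16010), which escorts light-harvesting proteins to the thylakoid, fell in both tissues and further in crowns, where it had 4.53, 4.96 and 4.01 CPM at 0 h and 0.677 and 0.832 at 42 d, with an interaction of -1.63 (FDR = 0.00407) that was 4.28 (FDR = 0.18) with the library labelled crown 42 d replicate 3. The summed CPM of the 6 photosynthetic leaf markers moved with this list in leaves only, from 2161 to 2269 at 0 h to 784.5 to 852 at 42 d. In crowns, where 12 list members rose and 5 fell, it was 38 to 42.8 at 0 h and 26.6 to 38.4 at 42 d. Of these 6 markers, 3 are members of the list with a called interaction, and the part of leaf cell content in the list's counts was not tested. With library totals in place of TMM factors, 4 members were called higher and 5 lower, and the median was 0.11 beside -0.565 over all genes. With the library labelled crown 42 d replicate 3, 2 were called higher and 1 lower.

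The SWEET1-like gene (FvH4_2g14860), a homolog of plant sugar exporters, had 6.72, 8.4 and 7.25 CPM in crowns at 0 h and 68.3 and 67.3 at 42 d. In leaves it had 59.5, 51.5 and 51.5 CPM at 0 h and 179, 217 and 123.5 at 42 d. It rose in both tissues with no overlap, by 3.18 log2 units in crowns and 1.68 in leaves, and the interaction was 1.51 ± 0.27 (SE, FDR = 0.00199). Cytosolic fructose-1,6-bisphosphatase (FvH4_2g13890), an enzyme of sucrose synthesis, rose in crowns from a mean of 26.5 to 65.9 CPM, with means of 794 and 626 in leaves and an interaction of 1.66 (FDR = 0.0011).

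**Figure D4:**
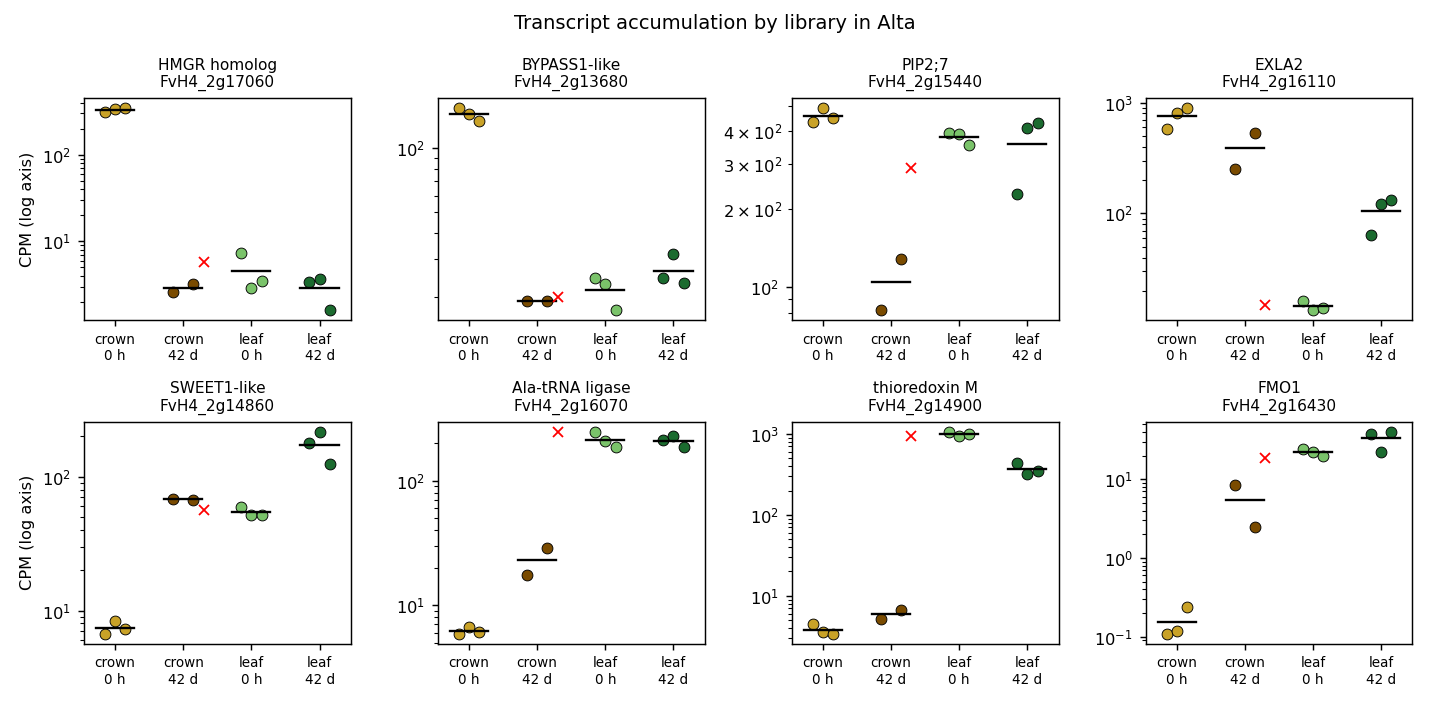
CPM (log axis, a range of its own in each panel) of 8 interval genes in each ‘Alta’ library, by group; black bars are group means over 3 libraries, or 2 in crowns at 42 d, and the red cross is the library labelled crown 42 d replicate 3, outside the fit. The HMGR homolog and BYPASS1-like fell in crowns only, SWEET1-like rose in both tissues, and the cross lies near the untreated leaves.

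Among 34 tested membrane transporters, 8 were called higher and 6 lower, or 41.2% beside 28.9% over all genes, with a median of 0.188. A member of the major facilitator superfamily (FvH4_2g15730) had 7.59, 7.35 and 5.87 CPM in crowns at 0 h and 37 and 27.2 at 42 d, and a leaf mean of 45.5 and 73.8 CPM, for an interaction of 1.51 (FDR = 0.00225). The sucrose transport protein SUC2-like (FvH4_2g12320), of a family that loads sucrose, had no count in leaves at 0 h and 1.05, 1.27 and 3.44 CPM at 42 d, at least 7.36-fold higher against 3 counts per library. It stayed below 0.5 CPM in crowns, and its interaction was called lower (FDR = 0.00525). The aquaporin PIP2;7 (FvH4_2g15440), a water channel of the plasma membrane, was also called lower, with a fall in crowns. It had 434, 491 and 449 CPM in crowns at 0 h and 81.9 and 128 at 42 d, while leaves had 395, 389 and 354 CPM at 0 h and 229, 410 and 430 at 42 d. The crown groups were apart and the leaf groups overlapped, and the interaction was -2.03 ± 0.35 (SE, FDR = 0.00161). The vacuolar iron transporter homolog (FvH4_2g13960) fell in both tissues, in crowns from a mean of 163 to 10.7 CPM, with an interaction of -1.39 (FDR = 0.0169). Its call was lost without leaf 42 d replicate 2 or replicate 3 (FDR = 0.0653 and 0.0716; range over the 11 fits without 1 library 0.00632 to 0.0716).

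The HMG-CoA reductase homologs, enzymes at the head of the mevalonate pathway to sterols and other isoprenoids, had the most negative list median. Of 6 genes, 5 were tested, 3 were called lower and none higher, 60% beside 28.9% over all genes, and the median was -3.09. FvH4_2g17060 had 314, 338 and 347 CPM in crowns at 0 h and 2.57 and 3.22 at 42 d. In leaves its values were 7.41, 2.87 and 3.54 CPM at 0 h and 3.38, 3.64 and 1.62 at 42 d. The crown groups were far apart and the leaf groups overlapped and crowns at 42 d lay within the range of leaves at 42 d. Its interaction was -6.12 ± 0.52 (SE, FDR = 2.23e-05).

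The second homolog, FvH4_2g17051, had 244, 275 and 290 CPM in crowns at 0 h and 26.9 and 20.7 at 42 d. Its leaf values stayed within 18.4 to 24.3 CPM over both times, and its interaction was -3.27 ± 0.20 (SE, FDR = 3.6e-06). The third, FvH4_2g17080, showed a different pattern. It had 31.7, 20 and 20.1 CPM in untreated leaves and 134, 137 and 34.4 at 42 d, a called rise of 2.08 log2 units with 1 library well below the other 2. The crown response of -1.01 was not called (FDR = 0.0987), and the interaction was -3.09 (FDR = 0.00541). All 3 interactions were also called with the library labelled crown 42 d replicate 3 included (FDR = 0.000908, 0.000112 and 0.0283, in the order given). The IDs of the HMG-CoA reductase homologs are close in number, and reads shared between similar copies could have been divided among them by the counting.

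Cell wall proteins had 4 of 16 tested members called lower and none higher, 25% beside 28.9% over all genes and so not above the background, with a median of -0.26. The expansin-like gene EXLA2 (FvH4_2g16110), of a family that loosens cell walls, had 581, 801 and 894 CPM in crowns at 0 h and 253 and 529 at 42 d. In leaves it had 16.2, 13.5 and 14.2 CPM at 0 h and 63.5, 121 and 131 at 42 d. It fell in crowns and rose in leaves with no overlap in either tissue, and the interaction was -3.81 ± 0.49 (SE, FDR = 0.000294). EXORDIUM-like 5 (FvH4_2g16740) also fell in crowns and rose in leaves, from means of 36.2 to 17.8 CPM and of 23.7 to 48.8 CPM, with an interaction of -2.07 (FDR = 0.00655). Expansin-A20 (FvH4_2g17030) fell in crowns from a mean of 3.57 to 0.363 CPM, with no called response in leaves, where it stayed below 0.9 CPM.

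Laccases and blue copper proteins, many of which oxidise phenolics of the cell wall, had 5 of 9 tested members called lower and none higher, 55.6% beside 28.9% over all genes, with a median of -2.06. Laccase-15-like (FvH4_2g12610) had 262, 197 and 213 CPM in crowns at 0 h and 61.9 and 39.4 at 42 d, and 0.985 to 3.17 CPM in all leaf libraries, with an interaction of -2.06 (FDR = 0.0143). Laccase 9 (FvH4_2g12570) rose in leaves from 0, 0.198 and 0.531 CPM to 2.67, 1.90 and 4.45. Its crown values of 19.3, 25.2 and 19.59 CPM at 0 h and 8.87 and 14.8 at 42 d gave a response of -0.85 that was not called, and the interaction was -4.50 (FDR = 0.00145). Its leaf values at 0 h lie on both sides of 0.261 CPM, the floor of 3 counts per library in that group. The size of this interaction therefore rests on very few counts. The IDs of these laccases are close in number, and how reads shared between similar copies were divided is not known. The summed CPM of the 5 vascular and stem markers was lower at 42 d than at 0 h in both tissues, 319.6 to 344 against 114 to 153 in crowns and 94.9 to 121 against 37.5 to 56.5 in leaves, and their part in the counts of both wall lists was not tested.

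Transcription factors had 8 of 21 tested members called lower and none higher, 38.1% beside 28.9% over all genes, with a median of -0.80. The ethylene-responsive factor ABR1-like (FvH4_2g13240) was nearly silent in leaves at 0 h, with 0.611, 0.396 and 0 CPM, and had 45.4, 151 and 137 CPM at 42 d. Its crown values of 13.1, 13.6 and 34.4 CPM at 0 h and 22.2 and 79.9 at 42 d overlapped, and the interaction was -6.96 ± 1.21 (SE, FDR = 0.00173). The leaf values at 0 h lie on both sides of 0.261 CPM, or 3 counts per library, so its size depends on few counts. Scarecrow-like protein 1 (FvH4_2g15030), a GRAS family regulator, rose in leaves from a mean of 26.5 to 87.2 CPM against 133 and 142 in crowns, with an interaction of -1.62 (FDR = 0.000753). Other members fell in crowns. NAC029 (FvH4_2g16180) had 53.2, 42.9 and 53.2 CPM in crowns at 0 h and 5.08 and 7.60 at 42 d, with no called leaf response and an interaction of -2.12 (FDR = 0.0105). In contrast, bHLH62 (FvH4_2g18100) fell in both tissues and further in crowns. Its mean went from 23.6 to 0.539 CPM in crowns and from 2.73 to 0.69 CPM in leaves, with an interaction of -3.55 (FDR = 0.00751).

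Protein kinases had 1 of 23 tested members called higher and 6 lower, 30.4% beside 28.9% over all genes and so near the background, with a median of -0.59. OXI1 (FvH4_2g18040), a kinase activated by reactive oxygen species in Arabidopsis, had 39.1, 38.2 and 39.9 CPM in crowns at 0 h and 5.08 and 5.21 at 42 d. In leaves it had 21.5, 29.2 and 26.9 CPM at 0 h and 11.9, 9.58 and 9.78 at 42 d. It fell in both tissues with no overlap and further in crowns, with an interaction of -1.61 ± 0.21 (SE, FDR = 0.000309). With the library labelled crown 42 d replicate 3, its interaction was -0.11 (FDR = 0.954). Of 7 tested hormone genes, 2 were called lower and none higher, also near the background at 28.6%. They were the ABR1-like factor and phytosulfokine receptor 2 (FvH4_2g13190), whose interaction was -1.91 (FDR = 0.00719).

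All 3 tested genes listed as cold and dehydration associated rose in both tissues, beside 25.5% of all genes tested in crowns and 27.8% in leaves. Of the 3, 2 had an interaction called lower, beside 15.5% of all genes. The alcohol dehydrogenase gene ADH (FvH4_2g14760), which reduces acetaldehyde in fermentation, had 87.9, 67.3 and 59.8 CPM in crowns at 0 h and 1973 and 953 at 42 d. In leaves it had 7.41, 6.73 and 7.25 CPM at 0 h and 437, 265 and 328 at 42 d. The rise was 4.35 log2 units in crowns and 5.59 in leaves, an interaction of -1.23 (FDR = 0.0436) that was not called in 9 of the 11 fits without 1 library (FDR 0.00408 to 0.117). Its neighbour ADH-like (FvH4_2g14750) rose by 2.16 and 2.13 log2 units, with an interaction of 0.03 ± 0.33 (SE, FDR = 0.975). FvH4_2g09610, which the study lists with dehydrins, protective proteins of drying and freezing cells, had 10.9, 18.3 and 12 CPM in crowns at 0 h and 94.6 and 128 at 42 d. It had no count in leaves at 0 h and 2.81, 11.3 and 7.82 CPM at 42 d, at least 28.1-fold higher than a floor of 3 counts per library. Its interaction of -6.71 (FDR = 0.0315) rests on that floor, and it was not called in 5 of the 11 fits without 1 library.

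Some lists showed no called interaction, or a share of calls below that over all genes. None of 10 tested ribosomal proteins and translation factors was called, with interactions between -0.03 and 0.73 and a median of 0.25, although 4 rose and 1 fell in crowns and 2 rose and 1 fell in leaves. None of 15 tested pentatricopeptide repeat proteins, which bind organelle RNA, was called, with interactions between -1.08 and 0.60. Of 13 tested disease resistance and pathogen-related proteins, 2 were called lower (15.4%). Of 6 chaperones and heat shock proteins 1 was called higher (16.7%), and of 4 tested quinone oxidoreductase-like proteins 1 was called higher (25%). Over all genes 28.9% were called, so none of these lists was above the background.

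**Figure D5:**
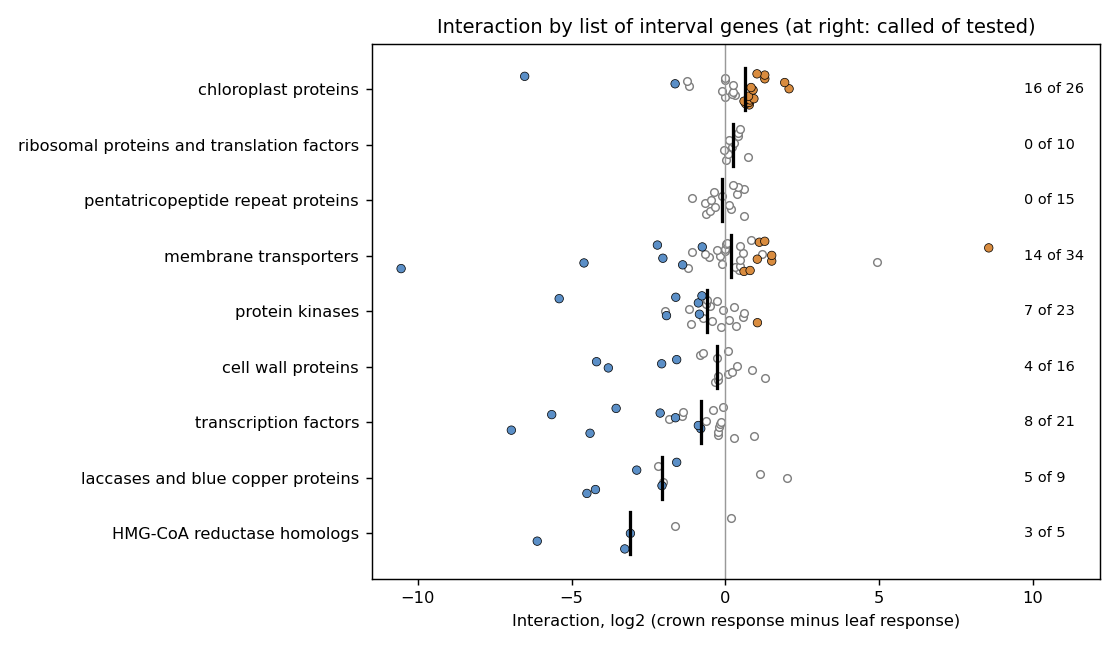
Interaction (log2 crown response minus leaf response) of each tested gene in 9 lists of interval genes; filled points had an FDR of at most 0.05, open points did not, and black bars are list medians. Points of chloroplast proteins lie mostly to the right of 0, and called transcription factors, laccases and HMG-CoA reductase homologs to the left.

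The study's 33 candidate genes were all tested, and 19 had a called interaction, 4 higher and 15 lower, beside 28.9% of all genes called, 13.4% higher and 15.5% lower. The study chose them on these libraries, so this count is not independent evidence of direction. BYPASS1-like (FvH4_2g13680), which in Arabidopsis stabilises a regulator of cold-induced genes, had 155, 145 and 134 CPM in crowns at 0 h and 19.1 and 19.2 at 42 d. Its leaf values were 24.6, 23 and 17.3 CPM at 0 h and 24.5, 31.8 and 23.1 at 42 d, and its interaction was -3.21 ± 0.23 (SE, FDR = 9.1e-06). The crown groups were apart, and crowns at 42 d lay within the range of untreated leaves. Flavin-containing monooxygenase 1 (FvH4_2g16430), an enzyme of systemic acquired resistance in Arabidopsis, had the largest interaction called higher among the candidates. It had 0.109, 0.117 and 0.24 CPM in crowns at 0 h and 8.47 and 2.50 at 42 d, against 20 to 24 and 22.1 to 40.1 CPM in leaves, with an interaction of 4.47 ± 0.75 (SE, FDR = 0.00149). The crown values at 0 h lie on both sides of 0.173 CPM, the floor of 3 counts per library in that group. The size of this interaction therefore rests on very few counts.

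The 3 candidates called with a group at or under 3 counts per library were all lower. In each of them, crowns at 42 d and leaves at both times were at or under that floor. Their leaf responses could therefore not be measured, and the sizes of their interactions rest on the floor. ASMT (FvH4_2g15840), which methylates N-acetylserotonin to melatonin, had 8.90, 9.91 and 9.35 CPM in crowns at 0 h and no count at 42 d, at least 51.3-fold lower against 3 counts per library, and stayed below 0.2 CPM in leaves. Its interaction call was lost without leaf 42 d replicate 1 (FDR = 1; range over the 11 fits without 1 library 0.0274 to 1). The hAT dimerization domain gene (FvH4_2g12511) had 1.26, 1.46 and 1.56 CPM in crowns at 0 h and none at 42 d, at least 7.78-fold lower. The acyl-[acyl-carrier-protein] gene (FvH4_2g14690) had 19.7, 9.91 and 12.6 CPM in crowns at 0 h and 0.203 and 0 at 42 d.

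No interaction was called for 14 candidates, with values ranging from -2.83 for AFP2-like (FvH4_2g18440, FDR = 0.0508) to 0.92 for ORG2-like (FvH4_2g11650, FDR = 0.569). The AFP2-like interaction was called without leaf 0 h replicate 2 (-7.30, FDR = 0.0121) and without crown 42 d replicate 1 (-3.66, FDR = 0.0124), and it ranged from -7.30 to -2.17 over the 11 fits without 1 library. AFP2-like had 1.75, 2.33 and 1.44 CPM in crowns at 0 h and 47.3 and 18.4 at 42 d, and 0 to 0.594 CPM in leaves at 0 h and 20.4 to 25.1 at 42 d, so that it rose in both tissues. CTR1 (FvH4_2g15800), a negative regulator of ethylene signalling, had 88.8 and 348 CPM in the 2 crown libraries at 42 d and 130, 175 and 150 at 0 h. Without the second of these crown libraries its interaction of -1.18 (FDR = 0.228) became -2.46 (FDR = 0.0108; range over the 11 fits without 1 library 0.0108 to 0.546).

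Other interval genes with opposite responses had no candidate status. Choline kinase 1 (FvH4_2g12980), of phosphatidylcholine synthesis, had 57.4, 50.5 and 59.3 CPM in crowns at 0 h and 25.7 and 36.3 at 42 d, and 14.5, 10 and 7.61 CPM in leaves at 0 h against 30.9, 38.6 and 20.9 at 42 d. Its interaction was -2.33 ± 0.39 (SE, FDR = 0.00139). A putative glutamine amidotransferase (FvH4_2g11460), with an interaction of -2.11, also fell in crowns and rose in leaves, with a mean of 34 to 18.8 CPM and of 7.33 to 17.5 CPM. A protein described as a membrane protein of the ER body (FvH4_2g18570) rose in crowns from 9.72, 11 and 8.93 CPM to 44 and 16.6 and fell in leaves from a mean of 27.1 to 14.1 CPM, with an interaction of 2.54 (FDR = 0.00169).

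With the library labelled crown 42 d replicate 3 included under its label, 23 of the 40 named genes with a called interaction were called and 17 were not. Of the genes described above, those that lost the call with a larger absolute interaction were thioredoxin M-type (7.83, FDR = 0.0512), EXLA2 (-4.35, FDR = 0.0505), laccase 9 (-5.001, FDR = 0.0526), fructose-1,6-bisphosphatase (3.88, FDR = 0.0595), the rhodanese-like protein (3.22, FDR = 0.0726), the vacuolar iron transporter homolog (-1.85, FDR = 0.171) and ADH (-1.80, FDR = 0.461). The call was lost with a smaller absolute interaction for PIP2;7 (-1.34, FDR = 0.151), bHLH62 (-1.49, FDR = 0.473), OXI1 and ASMT (-8.50, FDR = 0.0525). It was also lost for these list members: laccase-15-like (FvH4_2g12610, FDR = 0.173), phytosulfokine receptor 2 (FvH4_2g13190, FDR = 0.0613), scarecrow-like protein 1 (FvH4_2g15030, FDR = 0.0748), the oleoyl thioesterase (FvH4_2g18600, FDR = 0.0822), FvH4_2g09610 (FDR = 0.244) and the signal recognition particle protein. The remaining 6 of the 17 are named genes with no values in the paragraphs above.

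Outside the interval, the largest interactions among genes with a mean of at least 1 CPM in every group were given by ID. FvH4_3g36920 had 4.70, 6.41 and 6.23 CPM in crowns at 0 h and 150 and 200.5 at 42 d, while leaf libraries had 3846 to 5552 CPM at both times, with an interaction of 5.05 ± 0.29 (SE, FDR = 2.3e-06). FvH4_1g13960 fell in leaves from 351, 567 and 552 to 14.1, 8.31 and 8.23 CPM, with no called crown response and an interaction of 4.93. In the other direction, FvH4_6g20140 fell in crowns from 112, 108 and 103 to 1.83 and 1.61 CPM and rose in leaves from 0.993, 1.48 and 1.24 to 16, 27.5 and 17.2. Its interaction was -10.01 ± 0.37 (SE, FDR = 4.05e-07). FvH4_1g07981 fell in crowns from a mean of 345 to 1.66 CPM and rose in leaves from 5.25 to 16.5, with an interaction of -9.34. The groups of these genes did not overlap in any response called here.

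The same contrast was fitted in ‘NCGR1363’, in 1 model with the 23 libraries, for 20669 genes. In this model the interaction was called for 5674 genes in ‘Alta’ and 4741 in ‘NCGR1363’ (22.9%, with 11.3% higher and 11.6% lower), and 1941 were called in both, 34.2% of the former and 40.9% of the latter, 1657 of them with the same sign. The interactions share no library, and their Pearson's r over genes was 0.396, a description over genes. The difference between the genotypes was itself called for 3035 genes (14.7%), 1499 higher (7.25%) and 1536 lower (7.43%) in ‘Alta’. Of the 5674 ‘Alta’ calls, 1998 (35.2%) had a called difference.

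Several of the named interval genes differed between the genotypes. The genes in this paragraph are among the study's candidates, picked partly on expression differences between the parents in these libraries. Their calls are therefore not independent evidence of a genotype difference. The ‘Alta’ interaction minus the ‘NCGR1363’ interaction was -7.08 for FvH4_2g17060 (FDR = 4.64e-05) and -3.32 for FvH4_2g17051 (FDR = 2.62e-07), where the ‘NCGR1363’ interactions were 0.96 and 0.05. BYPASS1-like differed by -3.92 (FDR = 2.86e-06), EXLA2 by -4.17 (FDR = 0.000233), OXI1 by -2.86 (FDR = 5.14e-05) and PIP2;7 by -1.95 (FDR = 0.00568). For SWEET1-like the difference of 0.65 was not called (FDR = 0.42), nor was that of -0.84 for thioredoxin M-type (FDR = 0.3). The difference for ABR1-like was -2.34 (FDR = 0.637), so that a difference between genotypes was not shown for these 3 genes.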

How the data were processed

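RNASeq libraries were made with a strand-specific kit, and whether the counting used strand is not given in the sources used here. After trimming, the authors used Bowtie2 and RSEM against the mRNAs predicted in the v4.0.a2 annotation, and deposited expected counts per gene, held as whole numbers, with replicates not pooled. Reads shared by similar genes are divided by estimation in such values. The isoform table was not used.

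Counts were tested in R 4.3.3 with edgeR 4.0.16 (TMM factors, legacy quasi-likelihood fit, 4 group means), for genes with at least 0.5 CPM in at least 2 of 11 libraries, with Benjamini-Hochberg adjusted p-values (FDR) over all genes tested and a threshold of 0.05. Logarithms of CPM used a pseudocount of 0.1. Total counts of 12818719 to 16884412 per library set the precision, and a floor of 3 counts per library was used where a group had none, which covers counting error only. The library labelled crown 42 d replicate 3 was left out of the fit. The genotype comparison used the 23 other libraries and 8 group means.

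Named genes were the study's 33 candidates, the interval genes with a functional description and a mean of at least 1 CPM with the 12 largest called interactions in each direction, up to 8 with opposite responses, and, genome-wide, the 2 largest in each direction by ID among genes with a mean of at least 1 CPM in every group. Other members were given as examples of a counted list. The members and lists were chosen with earlier results of these data known. Alternatives were DESeq2 1.42.0, its size factors, library totals, other filters and fits, a stricter FDR, a replicate block, the left-out library included, and each library left out in turn. On simulated counts for 19688 genes with this design, 30 of 100 genes with a 2-fold interaction and 80 of 100 with a 4-fold interaction were recovered. The simulation used the trended dispersion, and no other gene had an interaction. It called 117 genes, against 5745 in the data, so the same FDR was a stricter cut on p-values there. These shares are therefore not the sensitivity of the main fit.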

Additional observations from a re-analysis of the deposited data

Results flagged for a closer look

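The effect of cold was tested for a difference between tissues, and that difference was called for 5745 genes, with called responses of opposite sign in 848. The values of single genes are given above.

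The interaction itself differed between genotypes for 3035 genes. Among the 54 named genes, 21 had such a difference, given here as the ‘Alta’ interaction minus the ‘NCGR1363’ interaction on the log2 scale, 15 of them lower in ‘Alta’, beside 14.7% of all genes, 7.25% higher and 7.43% lower. Many of the named genes were chosen for a large ‘Alta’ interaction, which is 1 term of this difference, so their count and its split follow in part from that choice. The study picked its 33 candidates among them partly on expression differences between the parents in these libraries. The count follows in part from that selection too. The largest of the lower differences were outside the interval, -8.84 for FvH4_1g07981 and -8.62 for FvH4_6g20140. Within it, the HMG-CoA reductase homologs FvH4_2g17060 and FvH4_2g17051 differed by -7.08 and -3.32, and lysozyme D-like (FvH4_2g18210) by -6.02. The citrate-binding protein (FvH4_2g13513) differed by -4.83, EXLA2 by -4.17, BYPASS1-like by -3.92 and expansin-A20 by -3.18. Smaller values were -2.86 for OXI1, -2.56 for EXORDIUM-like 5, -1.95 for PIP2;7, -1.64 for choline kinase 1, -1.04 for LRK10L1.2 (FvH4_2g12540) and -0.95 for a bromodomain protein (FvH4_2g16690). The 6 higher differences were 0.58 for DRP3A (FvH4_2g11510), 1.9 for the alanine-tRNA ligase, 2.35 for a kinesin (FvH4_2g14960), 3.6 for FvH4_3g36920, 4.33 for flavin-containing monooxygenase 1 and 4.84 for FvH4_1g13960.

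The library labelled ‘Alta’ crown 42 d replicate 3, outside the fit, had a summed CPM of photosynthetic leaf markers of 2205, against 26.6 to 38.4 in the other crown libraries at 42 d.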

How the results depend on the processing

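Signs were compared only for the named genes and the called list members, not for all genes tested. Among them, 5 interactions changed sign under library totals in place of TMM factors. Only that of FvH4_2g18150 was called with TMM factors. The 5 were DRP3A (FvH4_2g11510) to -0.17, FvH4_2g12040 to -0.51, FvH4_2g12161 to -0.0052, ADH-like (FvH4_2g14750) to -0.50 and FvH4_2g18150 to -0.057. With the library labelled crown 42 d replicate 3 included, the counts of called genes were 2046 for the interaction, 4885 for the crown response, 4705 for the leaf response, 2931 for crown against leaf at 42 d, 231 for opposite responses and 1269 for the genotype difference. Among the named genes and called list members, the interactions that changed sign there were FvH4_2g12040 (-0.025), FvH4_2g12620 (10.38), FvH4_2g13410 (0.033), FvH4_2g14190 (11.42), FvH4_2g14330 (1.38), ADH-like (-0.52), FvH4_2g16000 (1.56), FvH4_2g16010 (4.28), FvH4_2g16820 (1.33) and FvH4_2g18351 (0.30). At an FDR of 0.01, 3160 interactions, 366 opposite responses and 1361 genotype differences were called. The cause of these changes was not tested.

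Leaving out 1 library at a time gave 4573 to 5680 called interactions, 8932 to 11101 crown responses, 9788 to 11555 leaf responses, 649 to 957 opposite responses and 2458 to 4314 genotype differences. Of the 40 called named genes, 33 were called in all 11 such fits. Among the named genes and called list members, some interactions that were not called in the main fit changed sign. They ranged from -0.058 to 0.13 for FvH4_2g12040, from -0.29 to 0.31 for FvH4_2g14750 and from -5.78 to 0.24 for FvH4_2g16500.

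With the replicate number as a block, 5127 interactions were called and that of ADH-like (FvH4_2g14750) was -0.066. The correlation of deviations from the group means was -0.17 to 0.20 over 15 same-numbered pairs, with a mean of 0.021, and above 0.1 in 5. Over 30 other-numbered pairs it was -0.37 to 0.28, with a mean of -0.011, and above 0.1 in 7. The numbers were not taken as a pairing. Whether same-numbered libraries came from the same plants is not given in the sources used here.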
